A study of Mus musculus with 6 samples.

Results

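The 10 genes described here encode C-type lectin receptors of macrophages, cell-surface proteins with a C-type lectin-like domain. They were taken by name (CD209, MRC1, CLEC7A, CLEC4A, CLEC4D, CLEC4E, CLEC5A, CLEC12A, CLEC2B and CLEC10A) from 20036 genes in the deposited table, and all 10 names were found there. RNA was sequenced from THP-1, an established human cell line from an acute monocytic leukaemia, after the phorbol ester PMA had made the cells adherent and macrophage-like. The study's design describes PMA at 100 ng/ml over 48 h in the bottom well of a Transwell, where a porous membrane separates stacked chambers. Tumour cells were added above that membrane and the co-culture was kept for 48 h with melittin, a membrane-lysing peptide from bee venom, at 3 µg/ml. The series holds 3 libraries labelled NC, read here as the controls, and 3 labelled Melittin. What the control wells received (PMA alone, tumour cells, a vehicle) is not stated, so the co-culture and melittin cannot be told apart, and the tumour cells are not named beyond the mention of prostate cancer in the title.

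C-type lectin receptors bind sugars, lipids or proteins on microbes, dead cells and other cells. Some, such as CLEC7A, CLEC4E and CLEC5A, activate the kinase SYK, directly or through the adaptors FCER1G and TYROBP, and SYK then engages a complex of CARD9, BCL10 and MALT1 that turns on NF-kB. Others, such as CLEC4A and CLEC12A, carry inhibitory motifs that recruit phosphatases, and CD209, MRC1 and CLEC10A mainly take up what they bind. MRC1 (CD206), CD209 and CLEC10A are widely used as markers of alternatively activated (M2) macrophages, the state named in the title of the study.

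Libraries held 16001423 to 19597781 counts, and 14195 to 14440 genes had at least 1 count. The organism label reads mouse, but all 20036 gene identifiers are human, and the values are read as human expression. The labels name no separate cultures for the replicates. The p-values therefore rest on the spread of these libraries alone, and that spread may be technical. In bulk RNA, fewer cells with a transcript and less transcript per cell cannot be told apart.

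Of the 10 receptors, 1 rose with melittin, 3 fell, 1 did not pass the test and 5 were too low to be tested. CD209 rose 1.43-fold, CLEC5A fell 1.27-fold, CLEC7A 1.62-fold and CLEC2B 2.02-fold. The call of CLEC2B was lost without control replicate 1 (edgeR adjusted p = 0.11) or melittin replicate 1 (0.0508). CLEC4E was tested and did not pass, and MRC1, CLEC12A, CLEC4D, CLEC4A and CLEC10A had at most 8 counts in any library. These calls are from edgeR's quasi-likelihood test across 12029 genes at a Benjamini-Hochberg adjusted p of 0.05. Over all genes tested 76.4% passed, 38.1% higher and 38.3% lower, so 4 of 5 tested receptors is near the background. In the same 4 receptors the groups of libraries did not overlap (1 higher, 3 lower), against 77.4% of all genes tested (39.1% lower). Under total-count scaling, in which library totals replace the TMM factors, 33.6% of the genes that passed were higher, against 49.8% with TMM factors, and the median of all log2 fold changes moved from −0.007 to −0.238. The 4 receptors that passed kept their direction and passed with that scaling too.

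**Figure D1:**
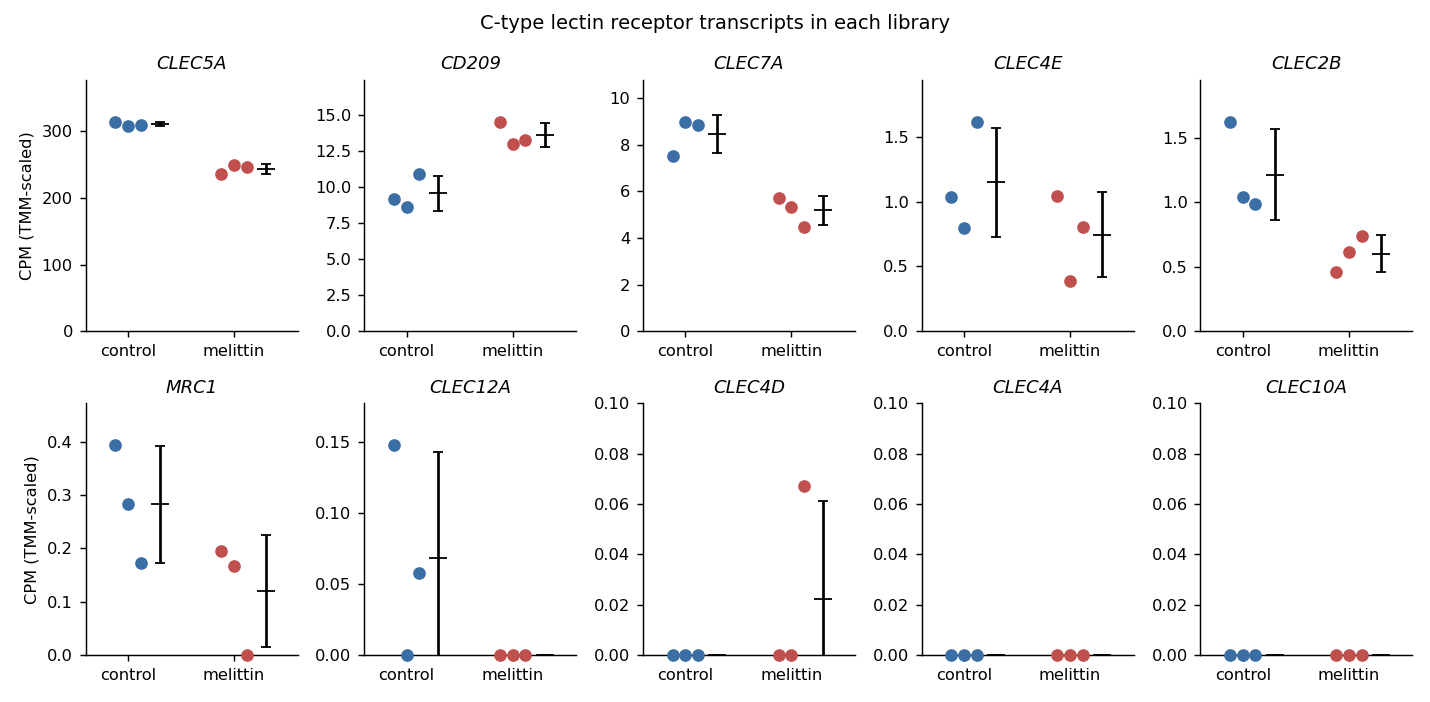
CPM (read counts scaled to library size, with TMM factors) of the 10 receptors in each of 3 control (blue) and 3 melittin (red) libraries, each panel with its own axis from 0; black marks show the mean and SD. The groups are apart for CLEC5A, CD209, CLEC7A and CLEC2B, overlap for CLEC4E, and CLEC4A and CLEC10A lie at 0 in all 6 libraries.

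Among the activating receptors, CLEC5A was by far the most abundant. CLEC5A (ENSG00000258227, chromosome 7, 141927357 to 141947007, minus strand, GRCh38), also known as MDL-1, pairs with TYROBP and is known as a receptor for dengue virus. Its level was 314.6, 308.0 and 310.0 CPM in control replicates 1, 2 and 3, and 235.6, 250.2 and 246.0 CPM in melittin replicates 1, 2 and 3. The lowest control stood well above the highest melittin library, and the controls were within a few CPM of each other. The mean went from 310.8 ± 3.39 to 244 ± 7.52 CPM (SD over the 3 libraries of a group), which is a log2 fold change of −0.35 (SE 0.0278, edgeR adjusted p = 7.12e-12). Under total-count scaling and on FPKM (deposited values of counts scaled to gene length and library total) the log2 fold change was larger, −0.58 with each. CLEC5A lies wholly within MGAM on the opposite strand. MGAM had 10.7 CPM in the controls and 5.87 CPM in the melittin libraries, and as the strand setting of the counting is not given, reads of the overlap cannot be assigned with certainty.

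CLEC7A, or Dectin-1, is the receptor for fungal beta-glucan and signals through SYK by its own tail. CLEC7A (ENSG00000172243, chromosome 12, 10116777 to 10130258, minus strand) stood at 7.53, 9.0 and 8.84 CPM in control replicates 1, 2 and 3, and at 5.72, 5.34 and 4.49 CPM in melittin replicates 1, 2 and 3. All melittin libraries were below all controls. The log2 fold change was −0.70 (SE 0.135, edgeR adjusted p = 3.92e-05), with raw counts of 153 to 191 in control and 67 to 96 in melittin libraries.

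CLEC4E, or Mincle, senses mycobacterial cord factor and the spliceosome-associated protein SF3B3 (SAP130) of dead cells through FCER1G. CLEC4E (ENSG00000166523, chromosome 12, 8533305 to 8540905, minus strand) had 21, 17 and 28 counts in control replicates 1, 2 and 3 and 16, 7 and 12 counts in melittin replicates 1, 2 and 3. On the CPM scale these were 1.03, 0.801 and 1.62 in controls and 1.04, 0.390 and 0.804 with melittin, so the groups overlapped. The log2 fold change was −0.63 (SE 0.385, edgeR adjusted p = 0.141). The gene passed without melittin replicate 1 (−0.95, edgeR adjusted p = 0.0482), under total-count scaling (−0.86, edgeR adjusted p = 0.0439) and on FPKM (−0.70, limma adjusted p = 0.0496). The value was −0.33 without control replicate 3 and −0.29 without melittin replicate 2, so at this depth single libraries set its size.

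CLEC4D, the partner of CLEC4E in a receptor for cord factor, had 0 counts in the 3 controls and 1 count in 1 melittin library (ENSG00000166527, chromosome 12, 8509475 to 8522366, plus strand). A count of 0 over the control libraries allows a level of up to 0.0510 CPM (3 counts over the group, counting error only). No difference was detectable at this depth.

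Neither inhibitory receptor was expressed at a level that could be compared. CLEC12A, which recognises uric acid crystals (ENSG00000172322, chromosome 12, 9951316 to 9995694, plus strand), had 3, 0 and 1 counts in control replicates 1, 2 and 3 and 0 counts in each melittin library. Its pooled level was 0.0680 CPM in controls, and a count of 0 over the melittin libraries allows up to 0.0622 CPM. CLEC4A, known as DCIR (ENSG00000111729, chromosome 12, 8123617 to 8138607, plus strand), had 0 counts in all 6 libraries, which allows up to 0.0280 CPM over the series. Such a limit is on the reads counted for a gene and does not show that the transcript was absent: CD68, a gene that macrophages typically express strongly, had 1 count in all. The last 468 bases of CLEC4A overlap an unnamed gene on the same strand (ENSG00000284393), which also had 0 counts.

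Of the uptake receptors, CD209 rose while MRC1 and CLEC10A were at the floor of detection. CD209, or DC-SIGN, binds mannose-rich sugars and the adhesion molecule ICAM3 (ENSG00000090659, chromosome 19, 7739993 to 7747564, minus strand). Its level was 9.20, 8.62 and 10.9 CPM in control replicates 1, 2 and 3 and 14.6, 13.0 and 13.3 CPM in melittin replicates 1, 2 and 3. Each melittin library was above each control, with raw counts of 183 to 189 in controls and 198 to 234 with melittin. The log2 fold change was 0.51 (SE 0.107, edgeR adjusted p = 9.9e-05). It was 0.28 under total-count scaling (edgeR adjusted p = 0.0181) and 0.27 on FPKM (limma adjusted p = 0.0294). CD209 shares much of its sequence with CLEC4M, which had at most 5 counts in a library, and it overlaps an unnamed gene on the same strand (ENSG00000288669, 1 count in all), so the division of reads among these is uncertain.

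MRC1, the macrophage mannose receptor (ENSG00000260314, chromosome 10, 17809348 to 17911164, plus strand), stood at 0.394, 0.283 and 0.173 CPM in control replicates 1, 2 and 3 and at 0.195, 0.167 and 0 CPM in melittin replicates 1, 2 and 3. The groups overlapped. Over the pooled libraries 17 counts in controls stood against 6 with melittin, a ratio of 0.430 (95% exact Poisson interval 0.139 to 1.14, counting error only). An exact two-sided permutation test over the 6 libraries gave p = 0.2, where the smallest p this design allows is 0.1. Without a low-count filter the log2 fold change was −1.19 (edgeR adjusted p = 0.248). CLEC10A, the macrophage galactose lectin (ENSG00000132514, chromosome 17, 7074537 to 7080307, minus strand), had 0 counts in all 6 libraries, which allows up to 0.0280 CPM.

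CLEC2B, or AICL, is itself a ligand, of the NK cell receptor KLRF1 (NKp80). CLEC2B (ENSG00000110852, chromosome 12, 9852369 to 9869386, minus strand) had 33, 22 and 17 counts in control replicates 1, 2 and 3 and 7, 11 and 11 counts in melittin replicates 1, 2 and 3. In CPM, 1.62, 1.04 and 0.982 in controls stood above 0.455, 0.612 and 0.737 with melittin, with no overlap and with control replicate 1 the highest. The log2 fold change was −1.01 (SE 0.366, edgeR adjusted p = 0.0144). The call ended without control replicate 1 (−0.74, edgeR adjusted p = 0.11) and without melittin replicate 1 (−0.86, edgeR adjusted p = 0.0508). CLEC2B and CLEC4E entered the test through the controls: the filter asks for 0.566 CPM in 3 libraries, which all 3 controls reached but only 1 melittin library for CLEC2B and 2 for CLEC4E.

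The receptors can also be set against each other within a library, where no scaling of libraries enters. The control libraries held 1.22, 0.958 and 1.24 CD209 reads per CLEC7A read in replicates 1, 2 and 3, and the melittin libraries 2.55, 2.44 and 2.96. The ratio was thus higher in each melittin library than in any control. As CD209 was higher and CLEC7A lower in every melittin library, this follows from the values above and adds no support. CD209 reads per 100 CLEC5A reads were 2.80 to 3.52 in controls and 5.20 to 6.18 with melittin, without overlap, which follows in the same way. CLEC7A reads per 100 CLEC5A reads were 2.39 to 2.92 in controls and 1.83 to 2.43 with melittin, and these groups overlapped.

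Levels of different receptors were compared per gene length, as FPKM. CLEC5A led with 80.8 to 82.5 FPKM in controls and 52.8 to 55.8 FPKM with melittin, and had a higher level than 98.0% of all genes in the table in controls and 96.8% with melittin. It held 92.9 to 93.8% of the summed FPKM of the 10 receptors in controls and 91.5 to 92.9% with melittin. CD209 (2.12 to 2.68 FPKM) and CLEC7A (1.95 to 2.33 FPKM) came next in controls and overlapped each other. With melittin they were apart, with CD209 at 2.72 to 3.06 FPKM and CLEC7A at 0.988 to 1.26 FPKM. CLEC4E (0.367 to 0.740 FPKM in controls, 0.152 to 0.408 with melittin) and CLEC2B (0.424 to 0.703 and 0.168 to 0.271) followed and overlapped in both groups. MRC1 was below them in each group, at 0.0361 to 0.0822 FPKM in controls and 0 to 0.0348 FPKM with melittin. In sum the 10 receptors went from 86.1 to 88.1 FPKM in controls to 57.8 to 60.1 FPKM with melittin, a change carried by CLEC5A. Without CLEC5A the sums were 5.32 to 6.18 FPKM in controls and 4.30 to 4.93 FPKM with melittin.

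**Figure D2:**
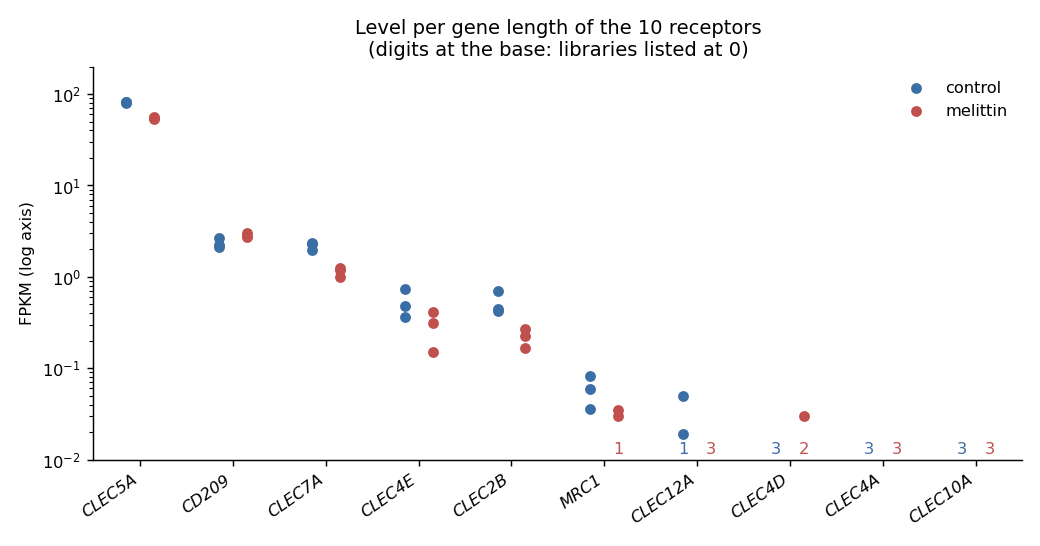
Deposited FPKM of each receptor (log axis) in the control (blue) and melittin (red) libraries, one point per library; digits at the base give the number of libraries listed at 0. CLEC5A lies at 52.8 to 82.5 FPKM, CD209 and CLEC7A between 0.988 and 3.06, and 5 receptors below 0.1 FPKM.

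The changes of the receptors were of ordinary size for this comparison. CLEC2B had a larger change, in either direction, than 81.1% of the genes tested, CLEC7A than 66.6%, CD209 than 53.9% and CLEC5A than 38.8%. Against a fold change of 1.5 rather than 0, edgeR's test called 0 of the 5 receptors and 3495 genes in all (29.1%). By the same edgeR quasi-likelihood model 1 of the 5 receptors, CLEC2B, was under 0.05 before adjustment, and its adjusted p was 0.136. The genes nearest to CLEC2B in log2(CPM + 1) over the 6 libraries were SYTL2, LY6G5B and APOC1, at Euclidean distances of 0.237, 0.286 and 0.316.

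**Figure D3:**
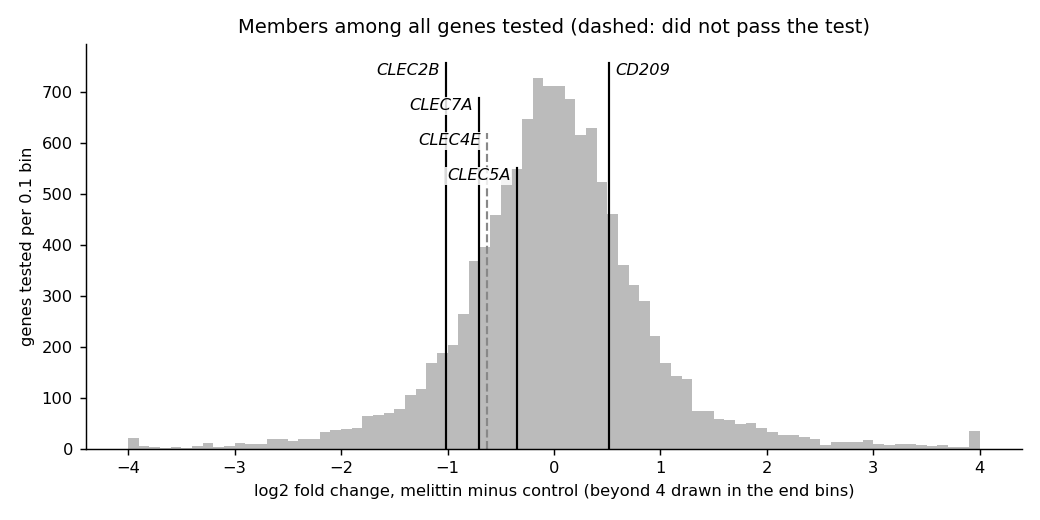
Number of tested genes per bin of log2 fold change (melittin minus control) with the 5 tested receptors as vertical lines. CLEC2B (−1.01), CLEC7A (−0.70), CLEC4E (−0.63, dashed, not passed), CLEC5A (−0.35) and CD209 (0.51) all lie within the bulk of the distribution.

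Several more distant genes with C-type lectin domains rose more than any of the receptors above. Of 45 such genes 44 were in the table and 12 were tested: 8 rose and the other 4 did not pass (under total-count scaling 7 rose and 3 fell). The median log2 fold change was 1.15, against −0.007 over all genes tested, of which 38.1% rose. CD69, with at most 7 counts in a control library, entered the test only through the melittin libraries. ASGR2 and FCER2, with 9 and 7 counts in control replicate 3, also needed melittin libraries to be tested. The count and the median of these genes thus lean towards genes that rose. THBD, the endothelial and monocyte cofactor that turns thrombin towards protein C, had 466.2 ± 5.66 CPM in control and 1391 ± 33.4 CPM in melittin libraries (SD, n = 3), with a log2 fold change of 1.58. MRC2, the collagen-binding relative of MRC1, went from 103.5 ± 2.19 to 248.5 ± 3.92 CPM, which is a log2 fold change of 1.26. CLEC2D (LLT1), the relative of CLEC2B that binds the NK cell receptor KLRB1, went from 19.4 ± 1.24 to 57.6 ± 1.06 CPM, which is a log2 fold change of 1.57. No counts were found in 15 of these genes, among them CD207, CLEC4C and CLEC4G.

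Genes that carry the signal of these receptors moved both ways. Of 24 adaptors and signalling genes 23 were tested, of which 12 rose and 8 fell (median log2 fold change 0.10). Over all genes tested 38.1% rose and 38.3% fell. Under total-count scaling 5 rose and 13 fell (median −0.14), so the balance of this list depends on the scaling. The shift is not particular to the list: the median over all genes tested moved from −0.007 to −0.238. SYK, the kinase on which activating receptors converge, went from 64.7 ± 2.03 to 40.8 ± 0.897 CPM, which is a log2 fold change of −0.66 (SE 0.0497, edgeR adjusted p = 1.99e-12). VAV1, an exchange factor phosphorylated downstream of SYK, and INPP5D (SHIP1), a lipid phosphatase, had log2 fold changes of −0.60 and −0.37. SRC, a kinase whose family phosphorylates receptor tails and adaptors, rose by 0.56 on the log2 scale, and PTPN6 (SHP-1), the phosphatase recruited by inhibitory receptors, by 0.39. These 5 genes kept their direction under each of the scalings tried.

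Some adaptors of the list were chosen here after their values were seen. TYROBP, the partner of CLEC5A, went from 97.1 ± 1.41 to 114.2 ± 5.15 CPM, which is a log2 fold change of 0.23 (edgeR adjusted p = 3.39e-06) that was 0.003 under total-count scaling (edgeR adjusted p = 0.94). CLEC5A reads per TYROBP read, which need no scaling, were 3.17 to 3.24 in controls and 1.98 to 2.26 with melittin. The lack of overlap follows from the separate CPM of each gene and adds no support. FCER1G, the partner of CLEC4E and CLEC4D, went from 361.5 ± 10.1 to 386.4 ± 22.1 CPM with overlapping groups. Its log2 fold change of 0.10 (edgeR adjusted p = 0.00868) turned to −0.14 under total-count scaling (edgeR adjusted p = 0.00034). CARD9 went from 2.29 ± 0.110 to 3.13 ± 0.666 CPM, which is a log2 fold change of 0.46 (edgeR adjusted p = 0.0496), and did not pass under total-count scaling (edgeR adjusted p = 0.321). PYCARD (ASC), the adaptor of inflammasomes, rose from 3.79 ± 0.345 to 6.41 ± 1.31 CPM, which is a log2 fold change of 0.76 that was 0.53 under total-count scaling (edgeR adjusted p = 0.000150 and 0.00457). CLEC7A reads per SYK read were 0.119 to 0.138 in controls and 0.111 to 0.143 with melittin, and these groups overlapped.

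**Figure D4:**
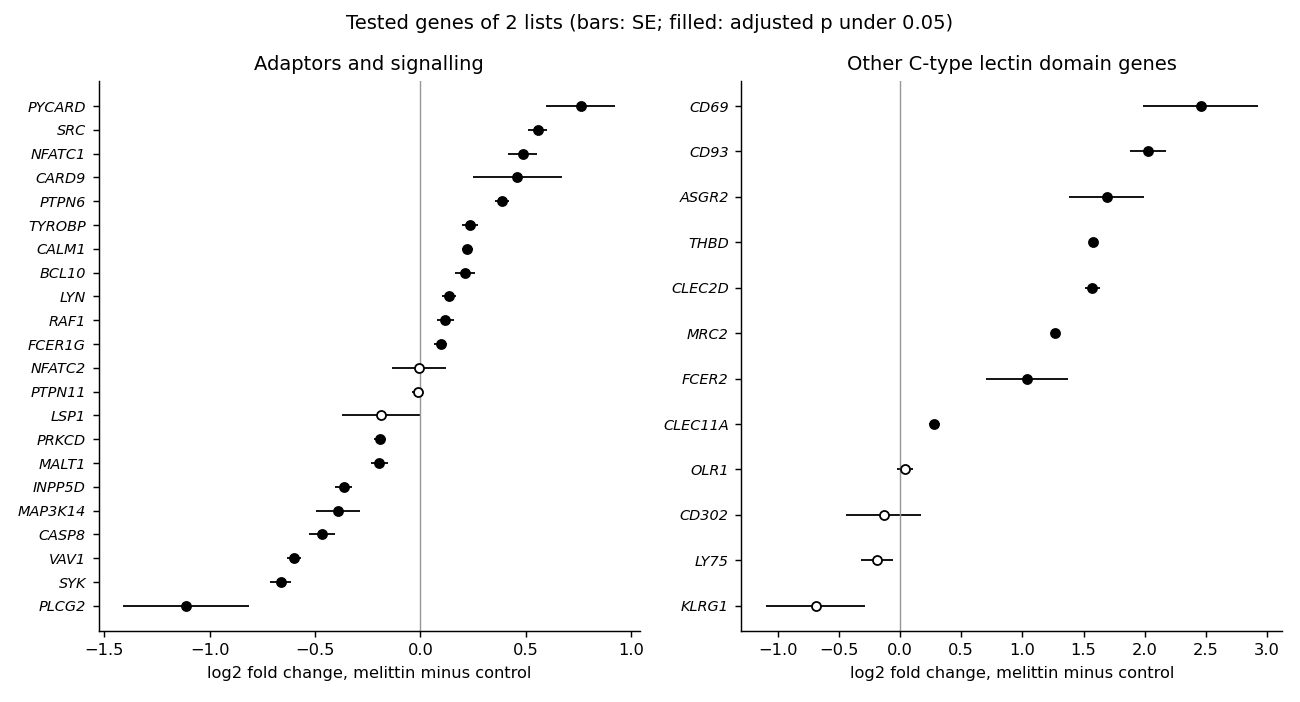
Log2 fold change (melittin minus control) with its SE for the tested genes of the adaptor and signalling list (left, 22 of the 23 genes) and of the other C-type lectin domain genes (right, 12 genes); filled points passed the test. On the left 11 of the genes drawn rose and 8 fell, from PYCARD (0.76) to PLCG2 (−1.11), and on the right 8 rose.

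Of 19 cytokine, enzyme and early response genes that SYK and CARD9 can induce, 18 were tested, 17 rose and TNF fell (median log2 fold change 2.79). Over all genes tested 38.1% rose. IL10, CCL22, CSF2 and NR4A1 had at most 9 counts in any control library. They entered the test only through the melittin libraries. IL6 and CSF3, with 6 to 11 and 7 to 15 counts in the controls, also needed melittin libraries to be tested. The count and the median thus lean towards genes that rose. CXCL8, CXCL2 and CXCL1, neutrophil attractants, rose by 2.10, 3.49 and 2.88 on the log2 scale, and TNF fell by 0.35. These genes are also induced by many other receptors, and their link to the lectin receptors was not tested.

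Of 12 genes for ligands and binding partners, 8 were tested. Against 38.1% higher and 38.3% lower over all genes tested, 2 rose and 6 fell (median −0.66). Under total-count scaling 1 rose and 7 fell. These counts hold SF3B3, the gene of the CLEC4E ligand, in place of the unrelated gene named SAP130 that the list first held, with which 3 rose and 5 fell; the exchange was made after the values were seen. PTPRC (CD45), whose sugars CLEC10A binds, went from 221.8 ± 3.57 to 84.1 ± 0.924 CPM, which is a log2 fold change of −1.40. ANXA1, of the annexin family whose members CLEC7A can bind on dying cells, and LGALS9 (galectin-9) fell by 0.80 and 1.10 on the log2 scale. ITGAM, the integrin chain that carries sugars for CD209, went from 36.0 ± 1.27 to 89.2 ± 4.52 CPM. SF3B3 went from 114.1 ± 2.87 to 92.7 ± 2.55 CPM, which is a log2 fold change of −0.30 (edgeR adjusted p = 4.76e-08). ANXA5 rose by 0.07, and fell by 0.16 under total-count scaling. KLRF1, the receptor of CLEC2B, had at most 4 counts in a library.

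Transcription factors with a known part in expression of these receptors were also mixed: 9 of 16 tested rose and 5 fell (median 0.15), against 7 and 8 under total-count scaling (median −0.09). With TMM factors the shares over all genes tested were 38.1% higher and 38.3% lower. CEBPB, which drives CLEC4E after Toll-like receptor signals, went from 163.7 ± 3.11 to 300.6 ± 14.3 CPM, which is a log2 fold change of 0.88. IRF8 and BHLHE40 rose by 2.92 and 1.35 on the log2 scale. STAT6, the factor of interleukin-4 that acts on CD209 and MRC1, and PPARG, which acts in the same programme, fell by 0.36 and 0.84.

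The genes of 6 of the 10 receptors lie on chromosome 12, in 2 clusters, and few genes there had enough counts to be tested. From CLEC4A to CLEC4E (8123617 to 8540905) the table holds 7 genes, of which CLEC4E alone was tested. From CLEC2B to CLEC7A (9852369 to 10130258) it holds 9 genes, of which the outer pair, CLEC2B and CLEC7A, were tested and fell. Between them lie KLRF2, CLEC2A, CLEC12A, CLEC1B, CLEC12B, CLEC9A and CLEC1A, none of which was tested, and CLEC1A had 21 counts in all, the most of these. In the Gene Ontology terms of the table, all 10 receptors carry carbohydrate binding, a term of 1.07% of all genes. They were picked as lectin receptors, so this shared term was given by their choice. Mannose binding is listed for 4 of them (CD209, MRC1, CLEC4A and CLEC4D) and the antifungal innate response for 4 (CLEC7A, CLEC4A, CLEC4D and CLEC4E).

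Markers of the cells were checked beside these results. Their counts stand against 38.1% higher and 38.3% lower over all genes tested. Of 16 macrophage and monocyte markers 14 were tested, 4 rose and 8 fell, and their summed level went from 1740 to 1771 CPM in controls to 1283 to 1329 CPM with melittin. CD68 was at 1 count, as given above, while CSF1R went from 722.2 ± 10.2 to 235.1 ± 2.98 CPM. CD163 and MSR1 fell with it, and ITGAX, ITGAM and S100A9 rose. ITGAX went from 417.0 ± 4.82 to 778.3 ± 14.5 CPM. CSF1R and ITGAX, which moved in opposite directions, made up most of the summed level, so the sum does not describe the other markers. Of 13 dendritic cell markers 9 were tested, 5 rose and 4 fell (summed level 106.2 to 110.0 CPM in controls, 232.3 to 235.8 CPM with melittin). CCR7, CD83 and LAMP3 rose, and CD1A, CD1E and CD1C fell. LAMP3, with at most 4 counts in a control library, entered the test only through the melittin libraries. CD1A and CD1E, with at most 2 and 1 counts in a melittin library, entered only through the controls. CCR7 and BATF3, with 9 counts in control replicate 1 and 8 in control replicate 3, also needed melittin libraries. These dendritic cell counts therefore lean towards genes that changed. Of 14 prostate and epithelial tumour markers 3 were tested, of which 1 rose, 1 fell (FOLH1) and 1 did not pass. FOLH1, with at most 5 counts in a melittin library, entered the test only through the controls. The epithelial genes EPCAM, KRT5, KRT18 and KRT19 and the prostate genes KLK2 and TMPRSS2 had 0 counts in all 6 libraries, and KLK3 had 2 counts in 1 melittin library. Of 11 lymphocyte and NK cell markers, NCAM1, GNLY and NKG7 were tested and rose (summed level 95.8 to 97.0 CPM in controls, 398.9 to 411.2 CPM with melittin), while CD3D and MS4A1 had 0 counts. The part of these shifts in the receptor values was not tested.

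**Figure D5:**
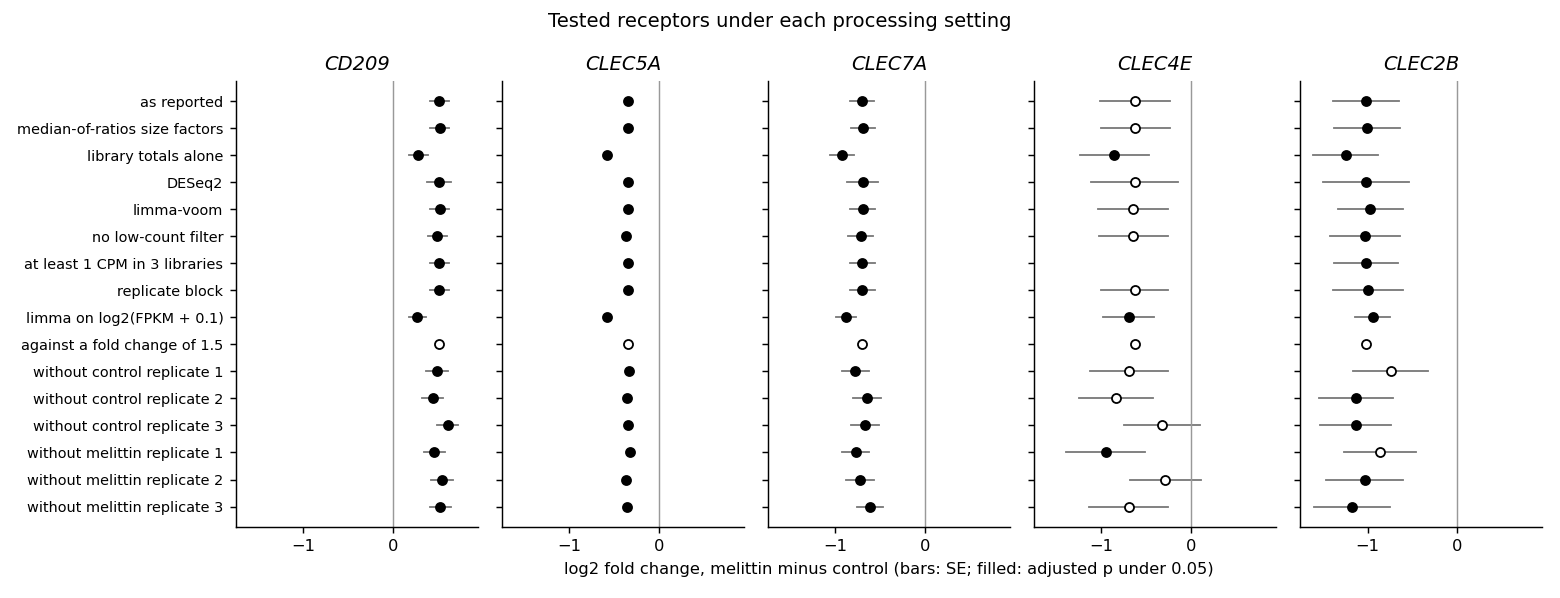
Log2 fold change (melittin minus control, with its SE where the test gives one) of the 5 tested receptors under each processing setting; filled points passed at an adjusted p of 0.05. CD209 stays above 0 (0.27 to 0.61) and the other 4 below 0 at every setting tried, while the calls of CLEC4E and CLEC2B vary.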

How the data were processed

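RNA was isolated by a chloroform method and libraries were prepared with an NEBNext Ultra II kit, per the labels' protocols. GRCh38 is the build in the submitters' processing notes. The aligner, counter, strand setting and annotation release were not given in the sources used here. Per gene, the authors deposited raw read counts, and FPKM values that equal counts divided by gene length and library total (largest relative deviation 2.2e-09 over values of at least 20 counts). Another deposited table repeats the FPKM. Names and positions of genes come from the deposited table, since the reference given was mouse.

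Counts were compared with edgeR 4.0.16 in R 4.3.3 (filterByExpr with the group, minimum count 10; TMM factors; glmQLFit and glmQLFTest, two-sided; Benjamini-Hochberg over 12029 genes). CPM use TMM factors. An SE is the log2 fold change divided by the square root of the test's F statistic. One count is worth 0.0471 to 0.067 CPM, and limits at 0 are those of 3 counts. Alternatives used DESeq2 1.42.0, limma 3.58.1 (voom, and log2(FPKM + 0.1)), other scalings and filters, and each library left out with the same genes tested. The edgeR test was checked on simulated data. Library pairs of a group differed by more than sampling noise (chi-square per degree of freedom 1.73 to 3.92), so no pair was taken as 1 library; this does not show separate cultures.

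The receptors and gene lists were chosen with earlier results of these data known. Genes named beside the receptors are, for each list, at most 3 that rose and 3 that fell, taken by smallest adjusted p, unless said otherwise, and those of the chromosome 12 clusters; the genes nearest in pattern are those of the tested receptor with the largest change. Some genes that this rule takes are not reported here.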

Additional observations from a re-analysis of the deposited data

How the results depend on the processing

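CD209, CLEC5A and CLEC7A passed the test under 14 of 15 alternatives each, CLEC2B under 12 of 15 and CLEC4E under 3 of 14, with the direction unchanged in each of these. The exception for the first 3 was the test against a fold change of 1.5, which keeps the log2 fold changes and asks for more: none of the receptors passed (0 of 5 with an adjusted p under 0.05, and 1 with an unadjusted p under 0.05, by edgeR, against 3495 of all genes), with CD209 at 0.51, CLEC7A at −0.70, CLEC5A at −0.35 and CLEC2B at −1.01. CLEC4E passed under total-count scaling (−0.86) and on FPKM (−0.70), and without melittin replicate 1 (−0.95); the cause was not tested. Leaving out each library in turn gave 0.44 to 0.61 for CD209, −0.78 to −0.61 for CLEC7A, −0.37 to −0.33 for CLEC5A, −0.95 to −0.29 for CLEC4E and −1.17 to −0.74 for CLEC2B, and 8805 to 9059 genes in all. It left 3 to 4 receptors called. Of the receptors that were not tested, CLEC4A and CLEC10A stayed at 0. Single libraries moved the difference in mean CPM (melittin minus control) of the other 3 by less than the larger SD of the 2 groups, but by over 1.5 times: from −0.162 to −0.102 without melittin replicate 3 and −0.107 without control replicate 1 for MRC1, from 0.0223 to 0 without melittin replicate 3 for CLEC4D, and from −0.0685 to −0.0289 without control replicate 1 for CLEC12A. Same-numbered libraries did not deviate together (correlations −0.046, 0.018 and −0.019). With a spread this small, that cannot show whether they shared a culture or a day. With the replicate block 9050 genes passed, and 4 receptors, as without it. CLEC4E is not tested with at least 1 CPM in 3 libraries. At this depth the 5 receptors with at most 8 counts in a library could not be compared.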
